A study of Mus musculus with 16 samples.

Results

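The comparison set the 12 nucleus accumbens libraries of mice given an alkaloid against the 4 libraries of mice given saline, and asked which genes moved the same way with arecoline, caffeine and nicotine. All 16 libraries of the series entered it. The mice were C57BL/6 males, exposed for 4 days to saline, to arecoline, to caffeine or to nicotine, with 4 libraries in each group. Dose, route, age, the time of dissection and whether a library held 1 animal are not stated in the labels used here, and p-values therefore measure only the spread between these libraries. All groups were of 1 strain and 1 sex, and all carried the procedure of repeated exposure, including the saline group.

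Arecoline, the alkaloid of the areca nut, activates muscarinic acetylcholine receptors and, less strongly, some nicotinic ones. Caffeine blocks adenosine receptors, above all A1 and A2A, the latter being dense on the striatal neurons that carry the D2 dopamine receptor. Nicotine opens nicotinic acetylcholine receptors, including those on dopamine terminals in the accumbens. The nucleus accumbens is a ventral striatal region in which most neurons are GABAergic medium spiny neurons, and it receives dopamine from the midbrain and glutamate from cortex, hippocampus and amygdala.

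Gene-level estimated read counts were compared after TMM scaling, which sets the libraries' overall scales against each other, and levels are given in CPM, counts scaled to a common library total. Of 14674 genes with enough reads, 167 differed between the 3 compounds, averaged with equal weight, and saline at an adjusted p under 0.05 (edgeR quasi-likelihood test, Benjamini-Hochberg over all genes tested), which was 1.14% of those tested. The higher genes numbered 62 (0.423%) and the lower genes 105 (0.716%). In all 167 the change had the same sign under arecoline, caffeine and nicotine, against 8071 genes (55.0%) with one sign among all those tested. The saline libraries are shared by the 3 contrasts and a pooled test favours genes with one sign, so that count describes the genes and is no independent support.

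The changes of the 167 genes were mostly modest. The median log2 fold change of the 62 higher genes was 0.49, and the gene with the largest rise reached 1.05. For the 105 lower genes the median was -0.68, the smallest fall was -0.30 and the largest -3.54. Caffeine gave the largest of the 3 changes in 128 of the 167 genes, arecoline in 29 and nicotine in 10. The same ranking was not counted over all genes tested, so it cannot be called particular to the 167. Among the higher genes the median log2 fold change was 0.40 with arecoline, 0.61 with caffeine and 0.44 with nicotine. Among the lower genes these medians were -0.61, -0.87 and -0.54. All 167 are protein-coding, and 21 of them (8 higher, 13 lower) were on any of 42 lists of cell type markers and pathway genes, 10 of which held a call.

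**Figure D1:**
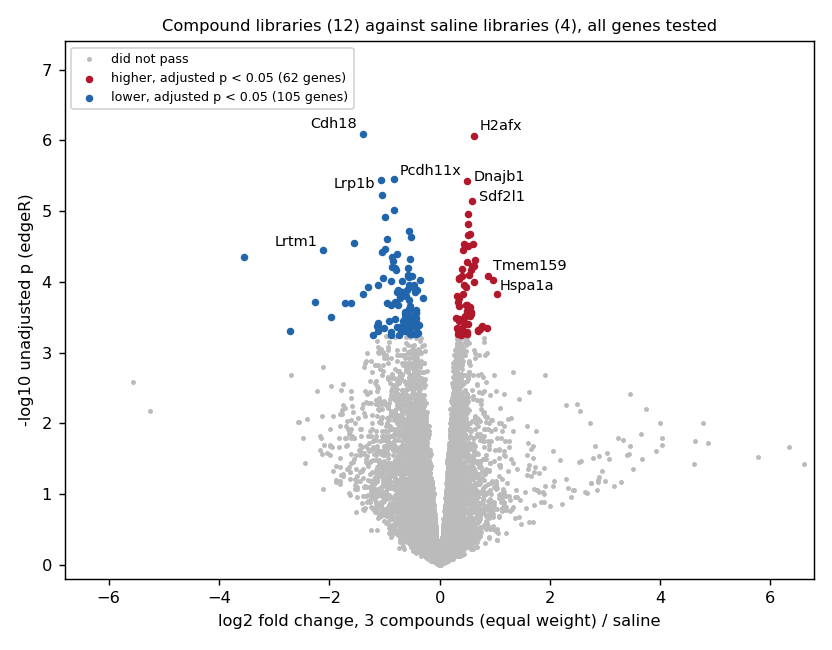
Log2 fold change of the 3 compounds, equally weighted, against saline (horizontal) and -log10 unadjusted p from edgeR (vertical), 1 point per gene tested. The 62 higher genes (red) lie close to 0 on the horizontal axis, with a median of 0.49, and the 105 lower genes (blue) extend further, to -3.54.

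Each compound alone gave a different number of calls. Caffeine against saline gave 599 genes at an adjusted p under 0.05 (4.08%), arecoline gave 2 (0.0136%) and nicotine gave 0 (0%), all by edgeR. At an unadjusted p under 0.05, arecoline gave 2301 genes, caffeine 3608 and nicotine 1796, and DESeq2 gave 450, 1469 and 105 genes at an adjusted p under 0.05. Of the 167 genes of the pooled comparison, caffeine had an unadjusted p under 0.05 in 167, nicotine in 149 and arecoline in 147. With all 3 compounds it was 129 (50 higher, 79 lower), against 366 of all genes tested. The pooled test averages these same 3 contrasts, so high counts among its calls were built in and are no independent support. At the adjusted threshold the calls of caffeine alone held 160 of the 167 and those of arecoline 2.

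The strict question, whether every compound moved a gene in one direction, was put with the largest of the 3 p-values for each gene. None passed after adjustment (edgeR, smallest adjusted p = 1.000), while 366 genes (171 higher, 195 lower) had an unadjusted p under 0.05, and DESeq2 called 3. A difference among the 3 compounds was called for 2 genes (0.0136%), and for none of the 167 (71 of them at an unadjusted p under 0.05, over all genes 2686). DESeq2 called a difference among compounds for 597 genes.

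A plainer reading of the libraries used no model. In 49 genes every one of the 12 compound libraries lay above every saline library (0.334% of genes tested), and in 41 every one lay below (0.279%). Of the 167 called genes 51 had that separation, 27 higher and 24 lower. A call and a separation rest on the same 16 values, so their overlap is a description. The number of separated genes rose from 90 to 419, 234 or 265 without saline library 1, 3 or 4. It was 186 without arecoline library 3 and 243 without nicotine library 2. Without any 1 of the other libraries it was between 90 (caffeine library 4) and 115 (nicotine library 3). Separation from fewer libraries is a looser demand, above all with only 4 saline libraries, so higher counts are partly built in.

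Among the higher genes without overlap, H2afx had the smallest p. It encodes the histone variant H2AX, which is phosphorylated around DNA breaks, and lies on chromosome 9 at chr9:44334694-44336077 (GRCm38). The saline libraries gave 52.0, 41.4, 46.0 and 42.5 CPM, and the 12 compound libraries ran from 59.4 over a median of 70.2 to 82.7 CPM. No compound library reached down to the highest saline library. The log2 fold change was 0.62 ± 0.08 (SE, n = 12 against 4, edgeR adjusted p = 0.0064), with 0.67 for arecoline, 0.75 for caffeine and 0.45 for nicotine. Nicotine gave the lowest and tightest compound values, 61.9 ± 1.85 CPM (SD, n = 4), as the plot of levels by library shows.

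Klf13 encodes a zinc-finger transcription factor of the Krüppel-like family (chr7:63886351-63938915). Saline gave 181, 183, 146 and 195 CPM, and the compounds ran from 214 to 323 with a median of 272. Both groups stayed apart, and arecoline lay lowest of the compounds (log2 0.47, against 0.65 with caffeine and 0.70 with nicotine). The pooled log2 fold change was 0.61 ± 0.11 (edgeR adjusted p = 0.022).

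Genes of the postsynapse and of the cell membrane were among this group. Ddn, which encodes dendrin, a protein of dendrites and the postsynaptic density, gave 156, 165, 164 and 163 CPM with saline. Its compound libraries ran from 176 over 235 to 314 CPM, with the 4 caffeine libraries at 233 and above. Its log2 fold change was 0.52 ± 0.09 (edgeR adjusted p = 0.020). Cnnm4, a magnesium transporter gene, rose from 19.4 ± 1.43 to 28.5 ± 3.05 CPM (mean ± SD, n = 4 and 12; log2 0.55 ± 0.09, edgeR adjusted p = 0.022). The lipid kinase gene Pip4k2b went from 13.2 ± 1.33 to 19.2 ± 2.74 CPM (adjusted p = 0.027), and the deubiquitinase gene Usp21 from 58.1 ± 2.42 to 79.3 ± 7.26 CPM (adjusted p = 0.022).

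The largest rises of this group were those of Tmem159 and Zfp341. Tmem159, whose product takes part in lipid droplet assembly, rose from 13.2 ± 3.19 to 24.2 ± 4.58 CPM, a log2 change of 0.87 ± 0.17 (edgeR adjusted p = 0.027). Zfp341, a zinc-finger gene, rose from 2.46 ± 0.614 to 4.47 ± 0.688 CPM (log2 0.86 ± 0.20, adjusted p = 0.047). Fam84a (log2 0.62, adjusted p = 0.028) and Izumo4 (log2 0.52, adjusted p = 0.046) complete the group's 10 largest rises.

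**Figure D2:**
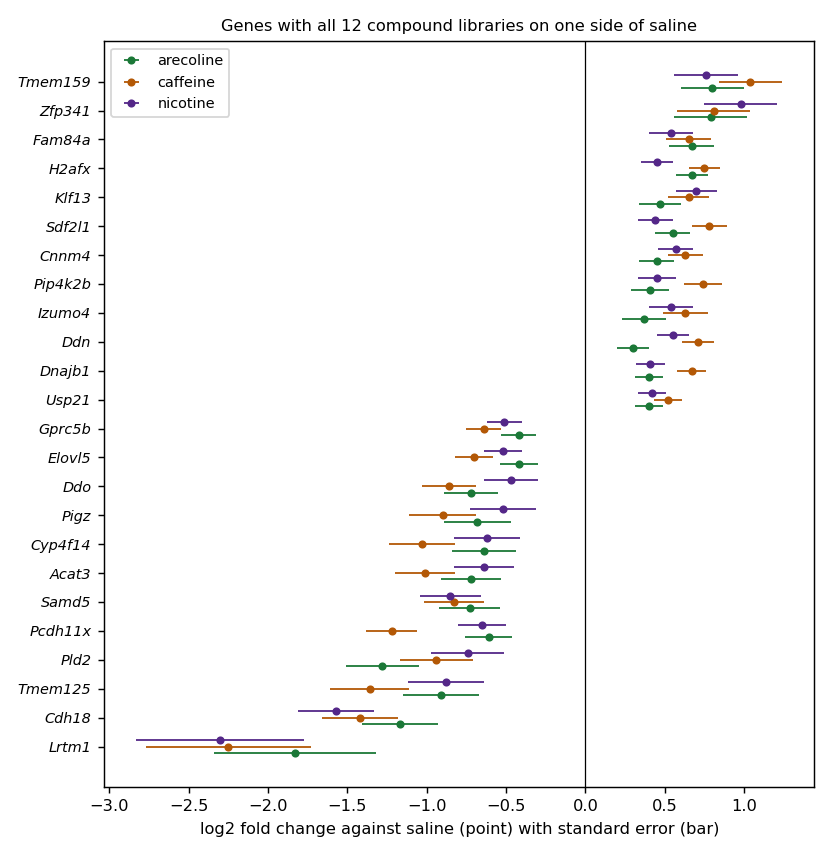
Log2 fold change against saline for arecoline, caffeine and nicotine (points) with standard errors (bars) in 24 named genes without overlap between the 12 compound and the 4 saline libraries, chosen by the size or the p of their change. Every point lies on its gene's side of 0, from Tmem159 at the top (0.87 pooled) to Lrtm1 at the bottom (-2.12 pooled).

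Among the lower genes without overlap, Cdh18 had the smallest p. It encodes a cadherin of the nervous system, a calcium-dependent cell adhesion protein, and spans 925 kb of chromosome 15 (chr15:22549022-23474418). With saline it gave 15.0, 21.9, 20.7 and 16.9 CPM. Every compound library lay under 10 CPM, from 4.50 over a median of 6.90 to 9.77. The fall was -1.39 ± 0.18 on the log2 scale (edgeR adjusted p = 0.0064), with -1.17 for arecoline, -1.42 for caffeine and -1.57 for nicotine.

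Pcdh11x, a protocadherin gene of the X chromosome (chrX:120290259-120910619), gave 51.6, 72.7, 47.9 and 63.8 CPM with saline. The compounds ran from 21.5 over 35 to 44.0 CPM, and the 4 caffeine libraries were the lowest as a group, at 21.5, 21.9, 26.9 and 30.9 CPM. The pooled log2 change was -0.83 ± 0.12 (edgeR adjusted p = 0.011), and it was -0.61 with arecoline, -1.22 with caffeine and -0.65 with nicotine.

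Lrtm1, a leucine-rich repeat membrane protein gene, had the largest fall of the group. Saline gave 6.95, 9.38, 15.6 and 11.3 CPM and the compounds 0.993 to 5.39 with a median of 2.38, a log2 change of -2.12 ± 0.38 (edgeR adjusted p = 0.023). The gene lies inside Cacna2d3 on the opposite strand. The library protocol does not mark strand, so reads of both cannot be told apart.

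Elovl5, which elongates polyunsaturated fatty acids, fell from 123 ± 5.83 to 84.7 ± 12.3 CPM (log2 -0.55, edgeR adjusted p = 0.022). Ddo, which encodes D-aspartate oxidase, fell from 14.1 ± 1.41 to 8.82 ± 1.61 CPM (log2 -0.68, adjusted p = 0.027). Pld2, a phospholipase D, went from 21.5 ± 6.75 to 11 ± 2.68 CPM (log2 -0.99, adjusted p = 0.023), and here arecoline gave the largest change, -1.28.

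Cyp4f14, a fatty acid and leukotriene hydroxylase, fell by 0.76 on the log2 scale (adjusted p = 0.035), and the mannosyltransferase gene Pigz fell by 0.70 (adjusted p = 0.048). Acat3, an acetyl-CoA acetyltransferase gene that overlaps Tcp1 on the other strand and has close copies, fell by 0.79 (adjusted p = 0.026). The membrane protein genes Tmem125 (log2 -1.05, adjusted p = 0.023) and Gprc5b (log2 -0.52, adjusted p = 0.022) and the gene Samd5 (log2 -0.80, adjusted p = 0.026) were also lower in all 12 libraries, all by edgeR.

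How far these calls rest on 1 library was measured by leaving out each in turn. Without saline library 2 no gene passed (edgeR, smallest adjusted p = 0.075, 2107 genes at an unadjusted p under 0.05), so the call of every gene named here was lost. The count was 288, 80 and 77 without saline library 1, 3 or 4, and 79, 359 and 95 without arecoline library 1, 3 or 4. It was 36, 56 and 97 without caffeine library 1, 2 or 4, and 73, 578, 82 and 66 without nicotine library 1, 2, 3 or 4. H2afx, Klf13, Sdf2l1, Cnnm4, Ddn, Cdh18, Pld2, Pcdh11x, Dnajb1, Elovl5, Gprc5b, Usp21, Lrp1b, Rsrp1 and Rtn4rl1 passed in the other 15 fits. Lrtm1 and Tmem125 also lost their call without saline library 3, and Samd5 without saline library 4. Tmem159, Pip4k2b, Acat3 and Ddo lost theirs without saline library 3 and without caffeine library 1, and Fam84a without those 2 and saline library 4. Zfp341, Pigz, Cyp4f14 and Izumo4 passed in 4, 4, 5 and 3 of the 16 fits. Their losses were spread over saline, caffeine and nicotine libraries and, except for Cyp4f14, arecoline libraries 1 and 4. Over the 16 fits the log2 change stayed between 0.58 and 0.70 for H2afx and between -1.47 and -1.30 for Cdh18.

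**Figure D3:**
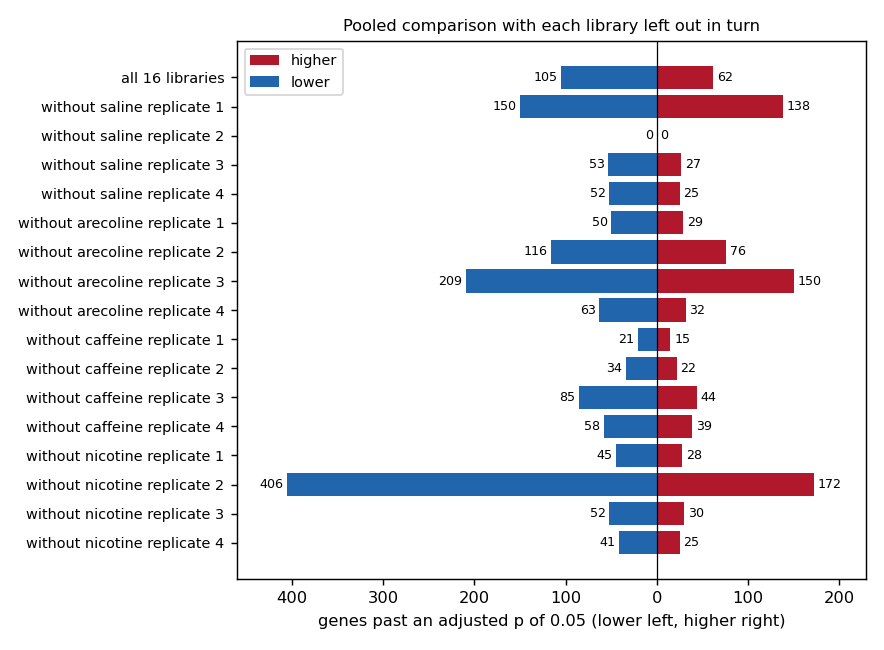
Number of genes at an adjusted p under 0.05 in the pooled comparison (edgeR) with all 16 libraries and with each left out in turn, lower genes to the left and higher genes to the right. The count was 167 with all libraries, 0 without saline library 2 and 578 without nicotine library 2.

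The libraries differed in their levels of medium spiny neuron markers, and the groups differed unevenly. The list's median log2 change was -0.05 with arecoline, -1.69 with caffeine and -1.46 with nicotine. The summed level of 14 medium spiny neuron markers was 9886 CPM in saline library 3, 6725 and 8619 CPM in arecoline libraries 2 and 3, and from 1012 to 2758 CPM in the other 13. The remaining saline libraries, at 2639, 2724 and 2758 CPM, lay above all 8 caffeine and nicotine libraries, which ran from 1197 to 2376 CPM. Cortical excitatory neuron markers summed to 1677 to 2355 CPM with saline, 1667 to 2196 with arecoline and 2524 to 3226 with caffeine and nicotine. In bulk tissue, fewer cells of a type and less RNA per cell cannot be told apart.

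None of the 14 medium spiny neuron markers passed in the pooled comparison, and neither did any of the 15 cortical markers, although the lists' medians were -1.03 and 0.41 on the log2 scale against a median of all genes within 0.01 of 0. Without saline library 3 those medians were -0.33 and 0.25. For the dopamine receptor gene Drd1, saline gave 78.2, 71.9, 306 and 82.5 CPM, and the compound libraries ran from 7.89 over 20.0 to 289 CPM. Arecoline libraries 2 and 3, at 194 and 289 CPM, set Drd1 apart from the other compound libraries, all at or under 45.6 CPM. Its log2 change was -1.81 ± 0.63 (edgeR adjusted p = 0.145), -1.01 without saline library 3 (adjusted p = 0.514) and -2.11 without the 4 libraries that stood apart (adjusted p = 0.0029). Those 4 were saline library 3, arecoline libraries 2 and 3, and nicotine library 2, which held 337 CPM of Omp, the olfactory marker protein gene, against 0.248 to 27.7 CPM elsewhere.

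With each library's medium spiny neuron score added to the model, 48 genes passed, 34 of them among the 167. H2afx, Cdh18, Dnajb1, Pcdh11x, Lrp1b, Sdf2l1 and Klf13 were among those 34, with adjusted p-values from 0.013 to 0.046. Tmem159, Cnnm4, Ddn, Lrtm1, Elovl5 and Gprc5b were among them too. Other genes described above as without overlap did not pass, at edgeR adjusted p-values from 0.056 (Samd5) to 0.114 (Pigz). They were Fam84a, Zfp341, Izumo4, Pip4k2b, Usp21, Pld2, Tmem125, Samd5, Acat3, Ddo, Cyp4f14 and Pigz. Without the 4 libraries 1268 genes passed, 164 of them among the 167. Among the libraries kept, the summed medium spiny neuron markers were 2639 to 2758 CPM with saline and 1012 to 2376 CPM with the compounds. Exposure and marker level therefore cannot be told apart in that setting. All 167 kept their sign under both settings.

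Stress chaperones gave 4 calls, all higher. Heat shock proteins of the cytosol, and their counterparts in the endoplasmic reticulum, help proteins fold, and cells make more of them when unfolded proteins accumulate. Of 22 cytosolic heat shock genes 2 were higher and none was lower, with a list median of 0.15, and of 24 endoplasmic reticulum chaperone and unfolded protein response genes 2 were higher and none lower, also with a median of 0.15. Over all genes tested 0.423% were higher. These lists, like all 42 used here, were chosen with earlier results of these libraries known, so their counts are no independent evidence. In the cytosolic list 17 of 22 changes were above 0 and in the reticulum list 20 of 24, against 7280 of 14674 over all genes. With each library's medium spiny neuron score in the model the medians were 0.16 and 0.12. Under it Dnajb1 (adjusted p = 0.033) and Sdf2l1 (adjusted p = 0.043) passed, while Hspa1a (log2 0.72, adjusted p = 0.057) and Hspa5 (log2 0.43, adjusted p = 0.093) did not, all by edgeR.

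The 4 genes were Dnajb1 and Hspa1a in the cytosol and Sdf2l1 and Hspa5 in the reticulum. Their promoter windows, 300 bases around the annotated start, are shown because the best-known inducible elements of both responses sit near the start of such genes. The sequences are RefSeq's (GRCm38.p6), at chr8:83607925-83608224 on the plus strand for Dnajb1 (the first of 2 listed windows), chr17:34972107-34972406 on the minus strand for Hspa1a, chr16:17132334-17132633 on the minus strand for Sdf2l1 and chr2:34771840-34772139 on the plus strand for Hspa5. Capitals mark an endoplasmic reticulum stress element or an AP-1 element.
Dnajb1: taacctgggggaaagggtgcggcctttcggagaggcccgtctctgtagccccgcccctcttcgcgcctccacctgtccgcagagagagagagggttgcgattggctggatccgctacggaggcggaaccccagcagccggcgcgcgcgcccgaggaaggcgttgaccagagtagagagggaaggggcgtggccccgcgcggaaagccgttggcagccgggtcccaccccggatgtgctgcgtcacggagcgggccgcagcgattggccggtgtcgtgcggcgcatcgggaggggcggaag
Hspa1a: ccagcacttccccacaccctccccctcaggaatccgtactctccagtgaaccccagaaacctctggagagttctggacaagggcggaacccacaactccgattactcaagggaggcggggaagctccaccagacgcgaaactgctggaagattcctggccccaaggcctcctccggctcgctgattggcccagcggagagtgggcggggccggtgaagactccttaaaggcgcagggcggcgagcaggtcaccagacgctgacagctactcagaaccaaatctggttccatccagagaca
Sdf2l1: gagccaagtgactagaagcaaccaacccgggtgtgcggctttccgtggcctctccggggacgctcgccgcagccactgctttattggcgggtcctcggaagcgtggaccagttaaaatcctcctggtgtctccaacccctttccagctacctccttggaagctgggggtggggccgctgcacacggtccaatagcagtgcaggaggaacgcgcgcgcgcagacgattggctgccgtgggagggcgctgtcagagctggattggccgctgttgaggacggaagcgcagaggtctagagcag
Hspa5: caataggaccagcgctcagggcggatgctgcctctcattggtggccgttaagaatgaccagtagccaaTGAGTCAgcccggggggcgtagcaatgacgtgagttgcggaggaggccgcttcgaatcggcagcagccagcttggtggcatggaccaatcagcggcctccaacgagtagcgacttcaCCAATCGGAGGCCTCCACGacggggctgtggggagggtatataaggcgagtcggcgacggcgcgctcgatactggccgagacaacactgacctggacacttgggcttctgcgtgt

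The endoplasmic reticulum stress element, searched as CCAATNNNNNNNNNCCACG on both strands, stood in the Hspa5 window. It was found in 0.119% of the 32851 windows of all genes and in 7 of the 20 listed reticulum genes that had a window (Calr, Canx, Creld2, Dnajc3, Hsp90b1, Hspa5 and Pdia6). Of those 7, Hspa5 alone was called. An AP-1 element, searched as TGACTCA or TGAGTCA, which are each other's reverse complement, also stood in the Hspa5 window and in 5.2% of all windows. The heat shock element, searched as GAANNTTCNNGAA or TTCNNGAANNTTC, was in 4 of 18 listed cytosolic genes (Chordc1, Hspd1, Hspe1 and Hsph1) and in 0.603% of all windows, and in none of the 4 windows printed. A match is a description of the letters, and a window without one says nothing of the factor.

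Dnajb1 encodes an Hsp40 co-chaperone that hands substrates to Hsp70 (chr8:83608193-83612653). With saline it gave 66.4, 67.8, 67.4 and 66.0 CPM. The compounds ran from 80.6 over 96.1 to 112 CPM, with no overlap. The log2 change was 0.49 ± 0.07 (edgeR adjusted p = 0.011), and caffeine, at 0.67, exceeded arecoline (0.40) and nicotine (0.41).

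Hspa1a encodes the stress-inducible Hsp70. Saline gave 19.8, 16.8, 11.3 and 19.1 CPM and the compounds 16 to 50.0 CPM with a median of 32.7. Arecoline library 3, at 16 CPM, lay within the saline range, and the caffeine libraries, at 36.8 to 50.0 CPM, were the highest group. The log2 change was 0.96 ± 0.19 (edgeR adjusted p = 0.027), and it did not pass without saline library 2, saline library 3 or caffeine library 1. Its near-identical neighbour Hspa1b had a log2 change of 0.89 (adjusted p = 0.248), and counting could have split reads between the 2 genes.

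Sdf2l1 encodes a small partner of the reticulum chaperones (chr16:17130138-17132383). Saline gave 14.1, 13.5, 12 and 13 CPM and the compounds 15.9 over 19.5 to 25.2 CPM, without overlap. The log2 change was 0.59 ± 0.09 (edgeR adjusted p = 0.015), again largest with caffeine at 0.78.

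Hspa5 encodes BiP, the main Hsp70 of the reticulum (chr2:34771970-34777547). Saline gave 269, 244, 258 and 299.8 CPM, and the compounds 268 over 383 to 473 CPM. Nicotine library 2, at 268 CPM, lay within the saline range. Arecoline gave the largest change, 0.64, against 0.48 with caffeine and 0.28 with nicotine, and the pooled log2 change was 0.47 ± 0.10 (edgeR adjusted p = 0.041). It passed in 4 of the 16 fits that left out 1 library.

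Of the other reticulum genes, Manf, a secreted stress-induced factor, had a log2 change of 0.41 (adjusted p = 0.085), the disulfide isomerase gene Pdia6 0.36 (adjusted p = 0.068) and the transcription factor gene Xbp1 0.26 (adjusted p = 0.133). The stress-response genes Ddit3 (-0.17), Trib3 (-0.59) and Chac1 (-0.14) had changes below 0, and none of them passed.

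**Figure D4:**
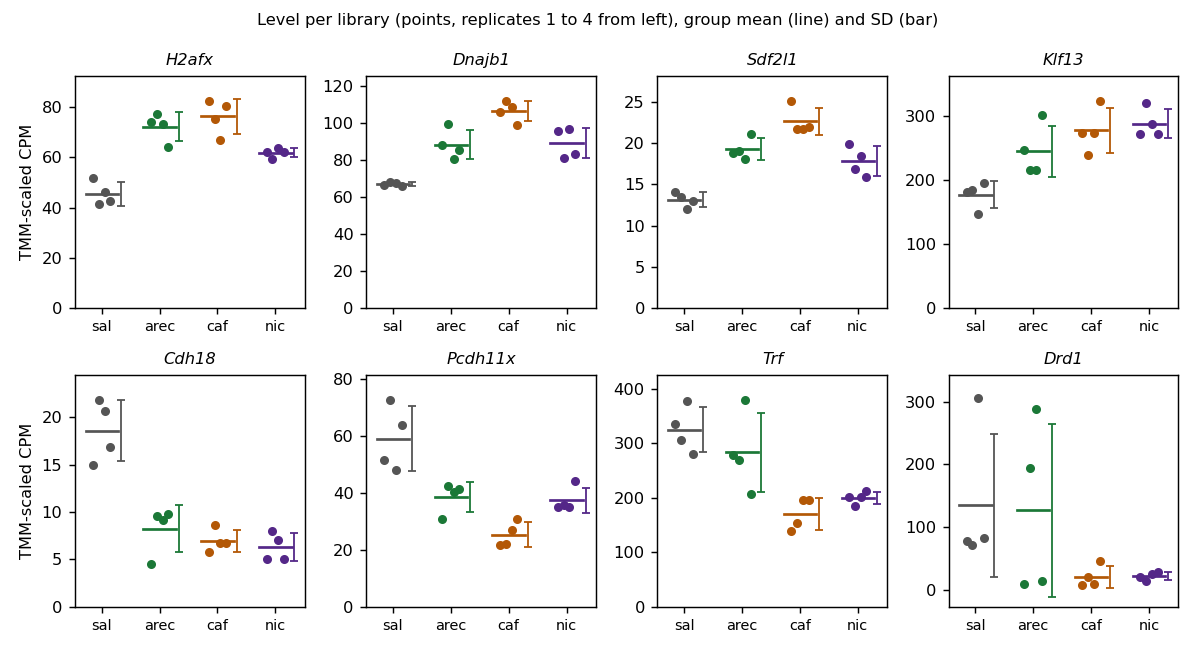
TMM-scaled CPM of 8 genes in each library (points, replicates 1 to 4 from left), with the group mean (line) and SD (bar) for saline, arecoline, caffeine and nicotine. H2afx, Dnajb1, Sdf2l1 and Klf13 lie above saline and Cdh18 and Pcdh11x below it in all 12 compound libraries, while Trf and Drd1 overlap. In Drd1 the overlap comes from arecoline libraries 2 and 3 (194 and 289 CPM), and saline library 3 (306 CPM) stands apart from the other saline libraries.

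Mature oligodendrocytes make the myelin sheath. Of 18 of their markers 2 passed, both lower (0.716% of all genes tested were lower), and the other 16 did not pass. All 18 changes were below 0, against 7394 of 14674 over all genes, with a median of -0.54. Each compound's median was below 0 as well, at -0.21 with arecoline, -0.85 with caffeine and -0.58 with nicotine. The summed level ran from 7754 to 9052 CPM with saline and from 3739 to 10340 CPM with the compounds, and arecoline library 3 was the highest of all 16.

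Trf encodes transferrin, the iron carrier that oligodendrocytes make in brain (chr9:103204001-103230444). Saline gave 335, 306, 378 and 281 CPM. The compounds ran from 139 over 201 to 379.8 CPM, and arecoline library 3 gave that highest value. The log2 change was -0.61 ± 0.13 (edgeR adjusted p = 0.032), with -0.20 for arecoline, -0.93 for caffeine and -0.70 for nicotine, and it passed in 7 of the 16 fits that left out 1 library.

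Gjb1, the gene of connexin 32, fell from 12.2 ± 2.28 to 7.06 ± 2.03 CPM (log2 -0.81, edgeR adjusted p = 0.035, passed in 8 of 16 such fits). The myelin genes Mbp, Cnp and Mag did not pass, with log2 changes of -0.61 (adjusted p = 0.072), -0.54 (adjusted p = 0.078) and -0.53 (adjusted p = 0.136). A separate list of 14 markers of oligodendrocyte precursors and newly formed oligodendrocytes had a median of -0.22, with 12 changes below 0. Bcas1, a marker of newly formed oligodendrocytes, was its 1 call (0.716% of all genes tested were lower). It fell from 109.8 ± 18.2 to 66.4 ± 20.1 CPM (log2 -0.75, edgeR adjusted p = 0.030, passed in 11 of 16 such fits).

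Of 17 astrocyte markers 2 were lower and none was higher (0.716% of all genes tested were lower), 15 changes were below 0 and the median was -0.38. Ntsr2, a neurotensin receptor gene of astrocytes, gave 319, 350.3, 308 and 262 CPM with saline and 149.7 over 215 to 263 CPM with the compounds. Only arecoline library 2, at 263 CPM, reached the lowest saline library, and the log2 change was -0.56 ± 0.11 (edgeR adjusted p = 0.027, lost without saline library 2, saline library 3 or caffeine library 1). S1pr1, a sphingosine-1-phosphate receptor gene, fell from 215 ± 31.7 to 163 ± 21.7 CPM (log2 -0.40) and passed in 2 of the 16 fits. The glutamate transporter gene Slc1a2 had a log2 change of -0.41 (adjusted p = 0.078) and the water channel gene Aqp4 -0.43 (adjusted p = 0.230).

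With the neuron score in the model the glial medians were -0.35 (oligodendrocyte) and -0.32 (astrocyte), and Trf, Gjb1, Bcas1, Ntsr2 and S1pr1 no longer passed, at adjusted p-values from 0.070 to 0.105. Without the 4 libraries that stood apart the medians were -0.59 and -0.41. Other cell types gave no call, and their medians included -0.16 for 16 microglial, -0.36 for 14 endothelial and -0.70 for 13 fibroblast and meningeal markers. The fibroblast and meningeal median was -1.36 with arecoline, -1.40 with caffeine and 0.55 with nicotine. None of those markers was below 0 with all 3 compounds. The endothelial medians were -0.43, -0.57 and -0.00 in that order. In both lists nicotine library 2 stood highest. Its fibroblast and meningeal sum was 1558 CPM, against 127 to 169 CPM in the other nicotine libraries and 162 to 459.9 CPM with saline. Its endothelial sum was 768 CPM, against 314 to 530.3 CPM in the other nicotine libraries and 453 to 522 CPM with saline. Without the 4 libraries, nicotine library 2 among them, the pooled medians of these lists were -1.42 and -0.59.

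Long genes of neuronal adhesion gave the most calls of any list. These genes encode cadherins, neurexins, contactins and related surface proteins through which neurons recognise each other, and their introns are very long. Of 32 such genes 7 were lower (all genes tested 0.716%) and none was higher, 25 changes were below 0 and the median was -0.23. Besides Pcdh11x they were Lrp1b, Cntn5, Pcdh15, Csmd3, Nrxn3 and Ctnna2. The list was drawn up with earlier results of these libraries known, so its count is no independent evidence of its direction.

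Lrp1b, a large receptor of the LDL receptor family (chr2:40595246-42653624), gave 88.0, 188, 144 and 145 CPM with saline and 45.7 over 67.4 to 91.7 CPM with the compounds. Saline library 1 lay within the compound range, and the other saline libraries were far above it. The log2 change was -1.07 ± 0.16 (edgeR adjusted p = 0.011), with -0.83 for arecoline, -1.26 for caffeine and -1.11 for nicotine. Csmd3, a large membrane protein gene, gave 61.5, 119.8, 89.4 and 106 CPM with saline and 30.5 over 53.8 to 66.2 CPM with the compounds, a log2 change of -0.85 ± 0.16 (adjusted p = 0.024, lost without saline library 2 or 4). Its saline library 1 too lay within the compound range.

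Ctnna2, the neuronal alpha-catenin gene that ties cadherins to actin, fell less, from 110.3 ± 5.90 to 86.4 ± 8.12 CPM (log2 -0.36, adjusted p = 0.027), and passed in 10 of the 16 fits that left out 1 library. Cntn5 (a contactin, log2 -0.89), Pcdh15 (a protocadherin, log2 -0.89) and Nrxn3 (a presynaptic neurexin, log2 -0.72) had adjusted p-values of 0.027, 0.035 and 0.033. Members that did not pass included Ptprd (-0.04) and Cdh13 (0.46).

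Gene span gave an overlapping view that is not independent of that list. Of 218 tested genes of 500 kb or more in GENCODE M21, 14 were lower (6.42%, against 0.716% of all genes) and none was higher. Of those 14, 8 are described above (the 7 list members and Cdh18). The others were Ccser1, Dcc, Thsd7b, Hs6st3, Exoc4 and Vps13b, with log2 changes from -0.41 to -1.72, named because of their span after their values were seen. Median log2 changes were 0.05 for genes under 10 kb, -0.01 from 10 to 100 kb, -0.06 from 100 to 500 kb and -0.19 above. Each compound showed that order, with -0.15 (arecoline), -0.21 (caffeine) and -0.12 (nicotine) for the longest genes. Across 14661 genes, which are not independent, Spearman's rho between span and log2 change was -0.13, and with the longest transcript it was -0.15.

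**Figure D5:**
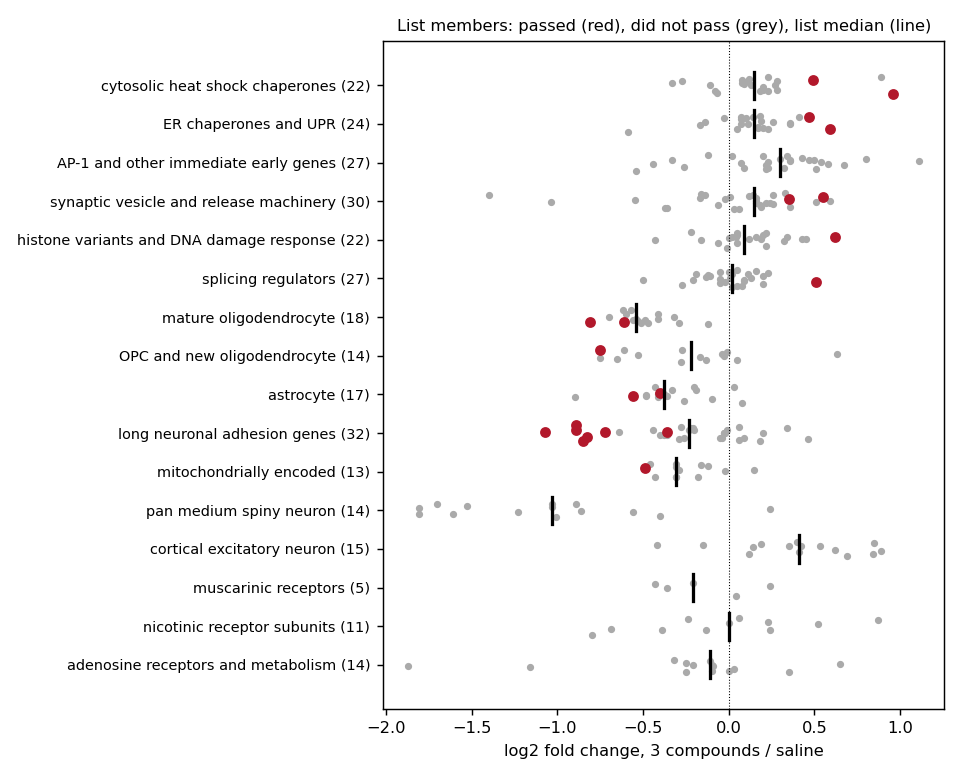
Log2 fold change of the 3 compounds against saline for the tested members of 16 gene lists (number in brackets), with called genes in red, others in grey and the list median as a line. All 18 mature oligodendrocyte genes lie below 0, the 4 called chaperone genes lie above it, and the medium spiny neuron list (median -1.03) holds no called gene.

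Some calls fell in other lists. Of 30 genes of synaptic vesicle release 2 were higher, against 0.423% of all genes tested, and 10 changes were below 0. At an unadjusted p under 0.05, 8 were higher and 4 lower. Syn1, the synapsin I gene, gave 643, 624, 503 and 683 CPM with saline and 650.1 over 927 to 1088 CPM with the compounds (log2 0.55 ± 0.12, edgeR adjusted p = 0.042). Vamp2, the synaptobrevin gene of the vesicle fusion machinery, gave 1485, 1417, 1417 and 1464 CPM with saline and 1456 over 1831 to 2163 CPM with the compounds (log2 0.35 ± 0.08, adjusted p = 0.048). In both genes 1 or more compound libraries lay within the saline range, and they passed in 4 and 2 of the 16 fits that left out 1 library. With the neuron score in the model neither passed (adjusted p = 0.078 for Syn1 and 0.101 for Vamp2). Syn1 shares its locus with Timp1 and Araf on the opposite strand.

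Of 27 splicing regulators 1 was higher, against 0.423% of all genes tested, and none was lower. Their median was 0.02, with 15 changes above 0 and 12 below it. The call was Rsrp1, an arginine- and serine-rich nuclear protein gene. Saline gave 172, 193, 198 and 189.9 CPM and the compounds 212 over 258 to 329.7 CPM, without overlap, and the log2 change was 0.51 ± 0.09 (edgeR adjusted p = 0.022). Arecoline gave 0.70, caffeine 0.55 and nicotine 0.27.

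Transcripts of the mitochondrial genome, which encodes subunits of the respiratory chain, took a smaller share of the compound libraries. The share of counts from the 13 genes was 5.47% ± 0.827 with saline and 4.30% ± 0.520 with the compounds (SD, n = 4 and 12), and the ranges, 4.29 to 6.12% and 3.48 to 5.20%, overlapped through saline library 3 at 4.29%. An exact two-sided permutation test over the 1820 assignments of libraries gave p = 0.0049, and 0.0099 after adjustment for 2 library measures. The other measure, the total count, was 13.8 ± 1.29 M (mega) with saline and 16.6 ± 4.08 M with the compounds (exact p = 0.224). Of the 13 genes 1 was called, and it was lower (0.716% of all genes tested were lower), while 12 of 13 changes were below 0. It was mt-Co1, a subunit of cytochrome c oxidase (log2 -0.49 ± 0.10, edgeR adjusted p = 0.029). mt-Co1 lost its call without saline library 2 or 4, caffeine library 1 or 2, or nicotine library 4. With the neuron score in the model it did not pass (adjusted p = 0.064), nor did it on quantile-normalized FPKM with limma (log2 -0.13). Of 56 nuclear-encoded respiratory chain genes and 51 cytosolic ribosomal protein genes none passed, with medians of 0.08 and 0.12.

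The receptors the compounds act on did not pass. None of 5 muscarinic receptor genes, 11 tested nicotinic receptor genes, 14 tested adenosine genes or 20 tested dopamine genes was called in the pooled comparison. Chrm1, the main muscarinic receptor gene of forebrain, gave 233 ± 32.3 CPM with saline and 276 ± 40.1 with the compounds (log2 0.24 ± 0.09, edgeR adjusted p = 0.155). Chrna4, a subunit of the high-affinity nicotinic receptor, gave 37.0 ± 12.9 and 53.4 ± 10.8 CPM (adjusted p = 0.148), and its partner Chrnb2 gave 95.2 ± 10.8 and 95.3 ± 12.4 CPM. The A1 receptor gene Adora1 gave 197 ± 30.4 and 185 ± 29.9 CPM (adjusted p = 0.730).

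The A2A receptor gene Adora2a followed the medium spiny neuron markers. Saline gave 28.5, 26.6, 356 and 50.4 CPM, and the compounds 1.31 over 9.01 to 307 CPM, with arecoline libraries 2 and 3 at 281 and 307 CPM. The log2 change was -1.87 ± 0.95 (edgeR adjusted p = 0.288), -0.15 without saline library 3 (adjusted p = 0.965), -2.06 without the 4 libraries that stood apart (adjusted p = 0.046) and 0.33 with the neuron score in the model (adjusted p = 0.653). The D2 receptor gene Drd2 (log2 -1.78, adjusted p = 0.264) and the muscarinic M4 receptor gene Chrm4 (log2 -0.36, adjusted p = 0.564) had the same 3 libraries on top. Without saline library 3 these changes were -0.34 and 0.15, and without the 4 libraries Drd2 passed (log2 -2.24, adjusted p = 0.020). In that last setting every compound library lay below every saline library in summed medium spiny neuron markers.

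Immediate early genes, which neurons switch on within minutes of activity, gave no call among 27 tested, though 22 changes were above 0 and the median was 0.30. The median was 0.36 with arecoline, 0.37 with caffeine and 0.21 with nicotine. Fos gave 29.5, 30.5, 53.2 and 44.1 CPM with saline and 27.0 over 54.8 to 94.8 CPM with the compounds (log2 0.51 ± 0.22, adjusted p = 0.213). Arc, at 0.50 (adjusted p = 0.294), had changes of 0.88 with arecoline, 0.70 with caffeine and -0.08 with nicotine, and Egr3, at 0.47, came closest to a call (adjusted p = 0.052).

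Finally, the compounds were set against each other within the 167 genes. The 5 called genes with the smallest p among compounds were Trf, described above, and Rtn4rl1, Hrk, Rnf165 and Celsr2, all 4 of them higher. In those 4 arecoline gave the smallest change. Rtn4rl1, a Nogo receptor homologue gene, rose from 65.8 ± 6.58 to 95.2 ± 16.4 CPM, with log2 changes of 0.20 (arecoline), 0.70 (caffeine) and 0.65 (nicotine). For Hrk, a pro-apoptotic BH3-only gene, they were 0.20, 1.19 and 0.79. The differences among compounds did not pass for any of them.

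The 2 genes past the threshold among compounds were outside the 167 and are named after their values were seen. Clcn2, a chloride channel gene, gave 14.2, 18.2, 10.1 and 14.9 CPM with arecoline against 23.0 to 31.7 with caffeine, 31.0 to 40.6 with nicotine and 21.9 to 32.3 with saline (edgeR adjusted p = 0.022). Dlx5, a homeobox gene of GABAergic neurons, gave 32.1, 27.9, 35.9 and 20.7 CPM with arecoline, 9.24 to 12.5 with caffeine and 6.19 to 7.61 with nicotine (adjusted p = 0.0025). Saline gave 10.7 to 21.5 CPM. Neither gene moved one way with all 3 compounds.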

How the data were processed

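Total RNA of 16 nucleus accumbens samples was reverse transcribed with oligo-dT and template switching and amplified by PCR, per the labels' protocols, so strand was not kept. Per the submitters' processing notes RSEM, StringTie 1.3.1, HISAT2, Bowtie2 2.2.8 and fastp 0.18.0 were used with the mouse build mm10. The deposited table held estimated counts, also called expected counts, and FPKM values per gene, both computed by the authors. Estimated counts were rounded here, and library totals ran from 9.04 to 24.3 M (mega). Of 22337 rows 22283 matched GENCODE M21 (GRCm38).

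Counts were tested with edgeR 4.0.16 (TMM, filterByExpr, a mean per group, quasi-likelihood F test), the pooled contrast being the mean of the 3 compounds minus saline, with Benjamini-Hochberg adjustment at 0.05. Fits were tested on simulated data. Alternatives were DESeq2 1.42.0, other scalings and filters, a replicate block, a covariate, left-out libraries and limma 3.58.1 on log2(FPKM + 0.1).

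The comparison, its 42 gene lists (781 genes, 764 tested) and the naming rule were chosen with earlier results of these data known. Named were, among called genes with all compound libraries on one side of saline and at least 1 CPM, the 10 largest changes per direction and the 10 smallest p, the 5 smallest p of the all-compounds test, up to 4 called members per list, a fixed set of receptor, activity and stress genes, and the 5 called genes with the smallest p among compounds.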

Additional observations from a re-analysis of the deposited data

Results flagged for a closer look

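Of 236 groups of 4 libraries, over the named genes and 2 library measures, 21 held a library far from the other 3, against the 1 in 20 that chance flags. Saline library 3 was the stray one in 9. It was high for Drd1 (306 CPM, the others at most 82.5), Drd2 (58.5, others at most 10.5), Adora2a (356, others at most 50.4), Adora1 (242, others at most 186), Chrnb2 (111, others at most 90.9), Arc (218, others at most 108), Dlx5 (21.5, others at most 11.2) and Omp (2.72, others at most 0.852). It was low for Slc17a7 (56.7 CPM, others at least 266), the gene of a vesicular glutamate transporter of cortical neurons. Nicotine library 2 held 337 CPM of Omp, where the other nicotine libraries held at most 4.57.

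Caffeine library 4 was high for Drd2 (6.63 CPM, others at most 1.28) and Adora2a (35.7, others at most 3.14). Among the 167 genes, stray libraries were caffeine 1 for Sdf2l1 (25.2 CPM), nicotine 3 for Pip4k2b (20.5 CPM), nicotine 1 for Ddn (216 CPM), arecoline 1 for Cdh18 (4.50 CPM), nicotine 4 for Pcdh11x (44.0 CPM), caffeine 2 for Cyp4f14 (7.14 CPM), caffeine 3 for Elovl5 (88.4 CPM), saline 4 for Usp21 (54.5 CPM) and saline 2 for Rtn4rl1 (75.7 CPM).

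Clcn2 and Dlx5 differed among the compounds (edgeR adjusted p = 0.022 and 0.0025).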

How the results depend on the processing

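Of the 167 genes, all kept their sign in each alternative that tested them. The filter of at least 5 CPM in 4 libraries tested 160 of them. None passed in all 16 fits that left out 1 library, and none passed without saline library 2. The number of genes past the threshold in the pooled comparison was 694 with DESeq2 (690 with one sign in all 3 compounds), 36 with one mean for all compound libraries, 48 with the neuron score as a covariate (all 48 with one sign) and 1268 (1263) without the 4 libraries that stood apart. On log2(FPKM) with limma it was 86 (86), 109 (109) with a pseudocount of 1, 71 (71) without a filter and 78 (78) after quantile normalization. The cause of these shifts was not tested. With upper-quartile factors 22.7% of calls were higher, with the covariate 47.9%, and in the main analysis 37.1%.

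For arecoline, caffeine and nicotine alone the counts were 450, 1469 and 105 with DESeq2, and 952, 1491 and 48 without the 4 libraries. Arecoline gave 9 with upper-quartile factors and 9 with the stricter filter, and with the covariate arecoline gave 32 and caffeine 75. FPKM without a filter gave 4 for arecoline and 319 for caffeine, and quantile normalization 368 for caffeine. The test of every compound on one side gave 3 genes with DESeq2. Differences among compounds numbered 597 with DESeq2, 73 with the covariate, 145 without the 4 libraries and 1 in each of the FPKM analyses, and genes separated in all libraries numbered 1080 without the 4. Leaving out 1 library gave 0 to 578 calls (0 to 578 with one sign), 0 to 198 for arecoline, 23 to 995 for caffeine, 0 to 4 for nicotine, 1 to 74 among compounds and 90 to 419 separated genes.

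With the replicate number as a block 285 genes passed (285 with one sign), 98, 997 and 2 for arecoline, caffeine and nicotine, 38 among compounds and 1 on one side with every compound. Of 24 same-numbered pairs 8 correlated above 0.1, and 4 of 16 libraries correlated best with their own number. The mean correlation was 0.05 for same-numbered pairs and -0.02 for the others. Whether libraries of one number shared handling was not tested.

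Log2 changes of genes without a call changed sign in places. With the covariate these became 0.23 (Drd2), 0.14 (Adora1), 0.33 (Adora2a), 0.31 (Chrm4), 0.09 (Chrnb2), -0.14 (Bdnf) and 0.17 (Dlx5). Chrnb2 became 0.01 without a filter, 0.00 with one mean or a block and 0.08 without the 4 libraries. Dlx5 became 0.22 with one mean, 0.22 without the 4, and 0.01 and 0.03 in FPKM with a pseudocount of 1 or quantile normalization. Leaving out 1 library gave -0.13 to 0.03 for Adora1, -0.55 to 0.15 for Chrm4, -0.03 to 0.08 for Chrnb2, -0.07 to 0.58 for Bdnf and -0.15 to 0.26 for Dlx5.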

Other observations

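The proteasome list, whose genes degrade tagged proteins, held no call, while 29 of its 31 changes were above 0 and 27 were above 0 with each compound, with a median of 0.15. Circadian clock genes gave no call and a median of -0.17, which was 0.06 without saline library 3 and 0.18 with the neuron score in the model. Interferon and antigen presentation genes had 19 of 23 changes below 0 and a median of -0.30, with -0.51 for arecoline, -0.64 for caffeine and 0.09 for nicotine, and none passed. Fibroblast and meningeal markers summed to 1558 CPM in nicotine library 2 and to at most 459.9 CPM in any other library. The 3 genes with the deepest called falls were Tnni3 (-3.54), Ngp (-2.71) and Tnnt1 (-2.26), named after their values were seen; their mean levels were 1.23, 2.14 and 2.80 CPM.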
